A study of Mus musculus with 4 samples.

Results

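Sp6 intervals that lie close to a gene start and hold no CpG island numbered 1530 in the dental tissues of the newborn mouse molar, 400 in epithelium and 1130 in mesenchyme. They were chosen as the distinct intervals of the authors' gene tables with a CpG island count of 0 and a smallest absolute distance of 5000 bp or less to a listed gene start. They made up 16.8% of the 2381 annotated intervals of epithelium (Wilson 95% interval 15.35 to 18.35%) and 15.67% of the 7211 of mesenchyme (14.85 to 16.53%), or 10.5% and 9.881% of all 3811 and 11436 intervals. The rule used position and CpG islands, and no peak value. For comparison, intervals near a start that hold a CpG island (island intervals) numbered 91 and 569, and intervals without an island farther than 5000 bp from any listed start (distal intervals) numbered 1881 and 5472.

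The data came from chromatin immunoprecipitation followed by sequencing (ChIP-seq), in which crosslinked chromatin is pulled down with an antibody and the recovered DNA is sequenced. Dental epithelium and dental mesenchyme came from molars of C57BL/6 mice at postnatal day 1, with 30 molars named in the protocol, so each library is a pool. Each tissue had 1 library made with a Sp6 antibody raised in the submitters' laboratory and 1 input library made with no antibody, so the series holds 4 samples. No group had a replicate, so no test was made, and the intervals printed for shares cover counting error only. ChIP-seq measures no RNA, so the tissue labels could not be checked against marker gene expression.

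Sp6, also called epiprofin, belongs to the SP and KLF factors, zinc-finger proteins that bind GC boxes and CACCC boxes in DNA. Mice that lack it form supernumerary teeth without proper enamel. Dental epithelium gives rise to ameloblasts, which secrete enamel, and dental mesenchyme gives rise to odontoblasts, which secrete dentin, and to the pulp. Many genes that are active in most cells start in CpG islands, whereas genes used in few cell types often start in CpG-poor DNA, so gene starts outside islands include those of many tissue-specific genes. The SP factors are known mostly from GC boxes at CpG-rich promoters.

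The promoters below are picked examples of the DNA where such an interval met a gene start, and they do not stand for the set. Other starts inside a mesenchyme interval were CpG-rich, with 34 CG dinucleotides in the promoter of Arfip1 and 30 in that of Shb. Among those printed, the promoters of Ambn, Enam, Mmp20 and Cldn17 had their start inside the interval in both tissues. That of Bmp4 had its start inside the interval in mesenchyme and 382 bp from the peak centre in both tissues, and that of Dlx2 is shown as a CpG-rich contrast whose interval lay 1506 bp (epithelium) and 1538 bp (mesenchyme) upstream. Each runs from 250 bases before to 50 bases after the RefSeq start (assembly GRCm38.p6), 5′ to 3′ along the gene. Capitals mark matches on either strand to 3 motifs. The GC box was searched as GGGCGG. The CACCC box was searched with its preceding letter, as CCACCC. The core that many homeodomain proteins recognise was searched as TAATT, and a palindromic match counts on both strands. Motifs were counted where they overlap.
Ambn promoter, chr5:88455741-88456040, plus strand: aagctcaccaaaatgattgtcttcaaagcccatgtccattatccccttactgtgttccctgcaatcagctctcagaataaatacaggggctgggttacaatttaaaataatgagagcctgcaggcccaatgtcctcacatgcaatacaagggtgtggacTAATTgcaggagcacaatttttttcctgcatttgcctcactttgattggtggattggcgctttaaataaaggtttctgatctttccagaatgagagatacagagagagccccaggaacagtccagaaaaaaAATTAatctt
Enam promoter, chr5:88487725-88488024, plus strand: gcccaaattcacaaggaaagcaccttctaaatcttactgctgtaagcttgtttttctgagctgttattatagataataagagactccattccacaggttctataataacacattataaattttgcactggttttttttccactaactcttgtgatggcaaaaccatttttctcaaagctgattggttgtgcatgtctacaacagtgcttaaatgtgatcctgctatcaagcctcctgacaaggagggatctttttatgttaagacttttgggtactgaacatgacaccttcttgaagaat
Mmp20 promoter, chr9:7627981-7628280, plus strand: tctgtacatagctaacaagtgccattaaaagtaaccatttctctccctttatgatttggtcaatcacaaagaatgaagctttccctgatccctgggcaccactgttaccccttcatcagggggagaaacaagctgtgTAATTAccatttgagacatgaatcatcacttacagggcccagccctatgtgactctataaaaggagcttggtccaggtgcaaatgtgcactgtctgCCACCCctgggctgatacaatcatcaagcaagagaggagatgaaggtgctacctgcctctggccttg
Cldn17 promoter, chr16:88506929-88507228, minus strand: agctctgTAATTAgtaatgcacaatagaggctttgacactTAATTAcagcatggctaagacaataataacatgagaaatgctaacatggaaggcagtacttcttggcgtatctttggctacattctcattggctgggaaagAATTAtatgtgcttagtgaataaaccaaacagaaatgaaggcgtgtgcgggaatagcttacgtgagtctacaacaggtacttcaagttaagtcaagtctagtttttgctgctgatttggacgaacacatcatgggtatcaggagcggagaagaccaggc
Bmp4 promoter, chr14:46390620-46390919, minus strand: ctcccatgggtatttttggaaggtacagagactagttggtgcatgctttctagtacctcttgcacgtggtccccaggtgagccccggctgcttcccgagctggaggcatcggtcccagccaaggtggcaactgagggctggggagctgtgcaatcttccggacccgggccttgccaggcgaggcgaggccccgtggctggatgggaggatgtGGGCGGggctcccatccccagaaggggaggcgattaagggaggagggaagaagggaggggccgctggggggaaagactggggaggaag
Dlx2 promoter, chr2:71546705-71547004, minus strand: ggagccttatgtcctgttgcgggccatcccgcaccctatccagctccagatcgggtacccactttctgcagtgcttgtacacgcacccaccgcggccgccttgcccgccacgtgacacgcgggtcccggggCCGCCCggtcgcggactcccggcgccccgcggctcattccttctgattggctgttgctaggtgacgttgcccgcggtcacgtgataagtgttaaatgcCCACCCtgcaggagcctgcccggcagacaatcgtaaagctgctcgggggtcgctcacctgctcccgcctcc

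The printed promoters of the enamel genes Ambn, Enam and Mmp20 were poor in CpG. Those of Enam and Mmp20 held 0 CG dinucleotides, that of Ambn held 1, and those of Cldn17, Bmp4 and Dlx2 held 6, 12 and 29. None of the promoters of Ambn, Enam, Mmp20 and Cldn17 held a GC box, and that of Mmp20 held 1 CACCC box. A homeodomain core was counted 2 times in Ambn, 2 in Mmp20 and 5 in Cldn17, and 0 times in Enam, Bmp4 and Dlx2. A match is a description of these letters and not a binding site, and the window is not the interval itself, which is given on another build.

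Start-proximal intervals without an island were not gathered at the gene start. In epithelium 56 lay within 1 kb of the nearest listed start (14%, 10.94 to 17.74%), 110 between 1 and 2 kb, 84 between 2 and 3 kb, 73 between 3 and 4 kb and 77 between 4 and 5 kb. In mesenchyme the same bins held 191 (16.9%, 14.83 to 19.2%), 270, 236, 212 and 221. The median absolute distances were 2359 and 2433 bp, against 452 and 366 bp for island intervals, of which 80.22% and 79.26% lay within 1 kb. The rule takes island intervals out, and islands lie mostly at starts, so part of this contrast follows from the rule.

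The side of the gene was close to even. The peak centre lay upstream of the start in 49% of these intervals in epithelium (44.13 to 53.89%) and in 47.7% in mesenchyme (44.8 to 50.61%). A further 43.5% and 44.96% lay inside the gene and 7.5% and 7.345% past the end of a short gene. The first kb downstream of the start was the emptiest stretch. In epithelium the bins from 0 to 500 and from 500 to 1000 bp downstream held 10 and 8 intervals, while the bins of the same width upstream held 18 and 20. In mesenchyme they held 29 and 34 downstream, against 69 and 59 upstream. The start itself lay inside the interval in 16 of 364 in epithelium (4.396%) and 74 of 956 in mesenchyme (7.741%), among the intervals whose gene had a known strand. Among island intervals it did in 27 of 83 (32.53%) and 295 of 499 (59.12%).

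**Figure D1:**
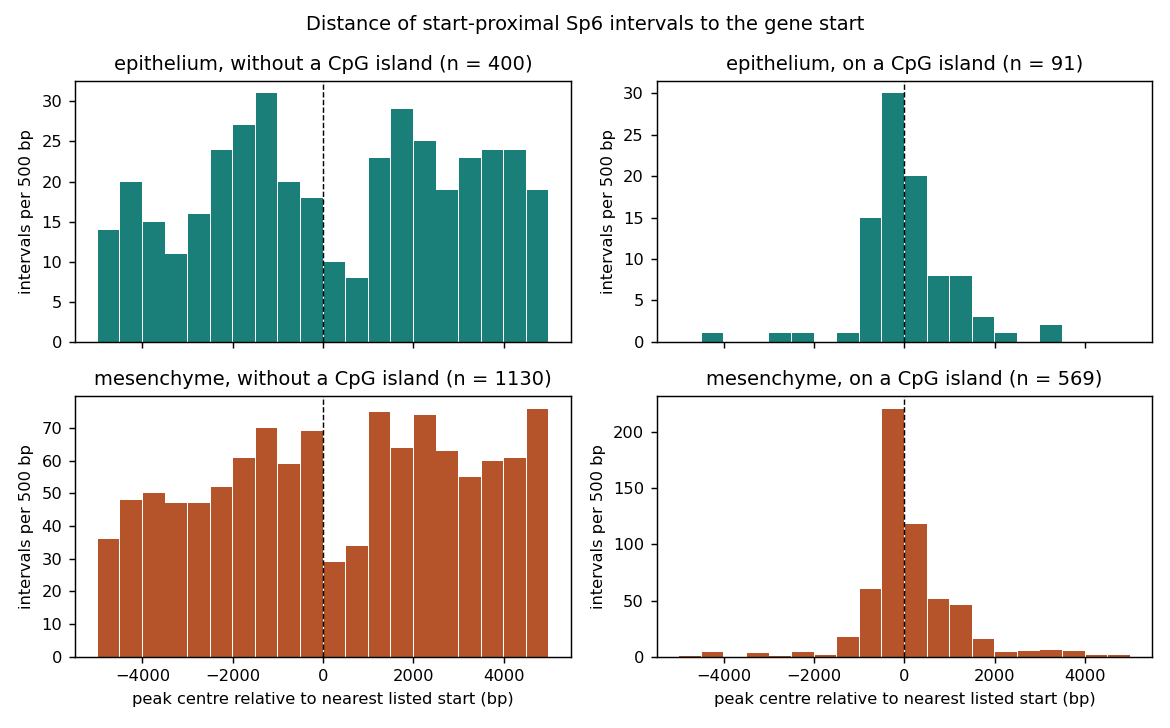
Number of start-proximal Sp6 intervals per 500 bp by distance from the peak centre to the nearest listed gene start (x axis, bp, negative upstream), in epithelium (top) and mesenchyme (bottom), without (left) and with (right) a CpG island. Intervals without an island are spread over the whole window, with 10 and 8 in the first 1000 bp downstream of the start in epithelium, while island intervals crowd at the start.

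The peak value of an interval, its highest fragment density as deposited by the authors, was ordinary for these intervals. The median was 26 in epithelium (interquartile range 20.75 to 37, range 12 to 231) and 33 in mesenchyme (25 to 49, range 11 to 415), against 27 and 34 over all annotated intervals. Distal intervals had medians of 28 and 36, and island intervals had 22 and 23. So within each tissue the start-proximal intervals without an island lay nearer to the distal intervals than to the island intervals. Among the highest 10% of peak values of each list were 36 of the 400 (9%) in epithelium and 114 of the 1130 (10.09%) in mesenchyme, where the cut took 9.79% and 10% of all annotated intervals. Island intervals there numbered 3 of 91 (3.297%) and 13 of 569 (2.285%). Median lengths were 551.5 and 637 bp, against 521 and 792 bp in island intervals. An interval of an input library overlapped 2 of them in epithelium, at 1700024P12Rik and Borcs6, and 1 in mesenchyme, at Borcs6.

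**Figure D2:**
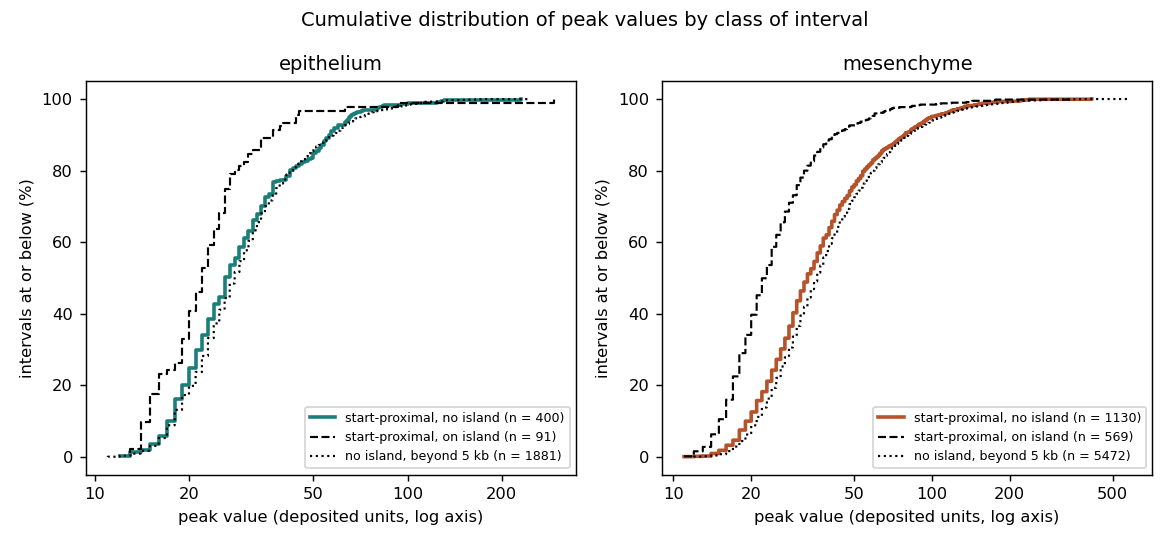
Cumulative share of intervals (y axis, percent) at or below each peak value (x axis, deposited units, log axis) in epithelium and mesenchyme, for start-proximal intervals without an island (thick line), island intervals (dashed) and distal intervals (dotted). The thick line runs close to the dotted line, with medians of 26 against 28 in epithelium and 33 against 36 in mesenchyme, and the dashed line lies at lower values, with medians of 22 and 23.

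Most epithelium intervals of this kind were also called in mesenchyme. Of the 400, 345 overlapped a mesenchyme interval by at least 1 bp (86.25%, 82.53 to 89.28%), beside 87.4% of all annotated epithelium intervals. In mesenchyme 336 of 1130 overlapped an epithelium interval (29.73%, 27.14 to 32.46%), beside 28.7% of all annotated ones. Both shares were near the background, and near those of distal intervals, 88.62% and 30.28%. Island intervals were shared less, 69.23% (59.13 to 77.77%) and 12.65% (10.17 to 15.64%), and their counting intervals did not overlap those of the other classes. Sharing followed the peak value. In the lower 50% of the list by peak value 78.04% of the epithelium and 11.11% of the mesenchyme intervals were shared, and in the upper 50% they were 95.7% and 50.37%. Depth is unknown, and its part in the sharing was not tested.

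Each shared epithelium interval was set beside the mesenchyme interval it overlapped, and in 335 such pairs both lay near a start without an island. Their peak centres lay a median of 32 bp apart, and 317 pairs (94.63%) had centres within 100 bp. The median peak values were 28 in epithelium and 55 in mesenchyme. Mesenchyme had the higher deposited value in 311 pairs, epithelium in 21 and neither in 3, with a median log2 ratio of epithelium to mesenchyme of -0.94 (interquartile range -1.30 to -0.60). Distal pairs had a median of -1 over 1663 pairs and island pairs -0.85 over 62. Scaling between the libraries is not stated, so a ratio describes deposited values and not a difference in binding.

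A few pairs, picked after their values were seen, lay far from that median. Cldn17, a claudin of tight junctions, had 54 in epithelium and 238 in mesenchyme, a ratio of mesenchyme to epithelium of 4.41. Usp5, a deubiquitinating enzyme, had 21 and 90, and Creb3l1, a transcription factor of secretory and bone-forming cells, had 37 and 151. At the other end lay Zfp704, a zinc-finger gene, with 41 and 24, and Cdk5, a cyclin-dependent kinase, with 26 and 18. Cldn17 thus ranked 29 in mesenchyme and 271 in epithelium among all annotated intervals.

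**Figure D3:**
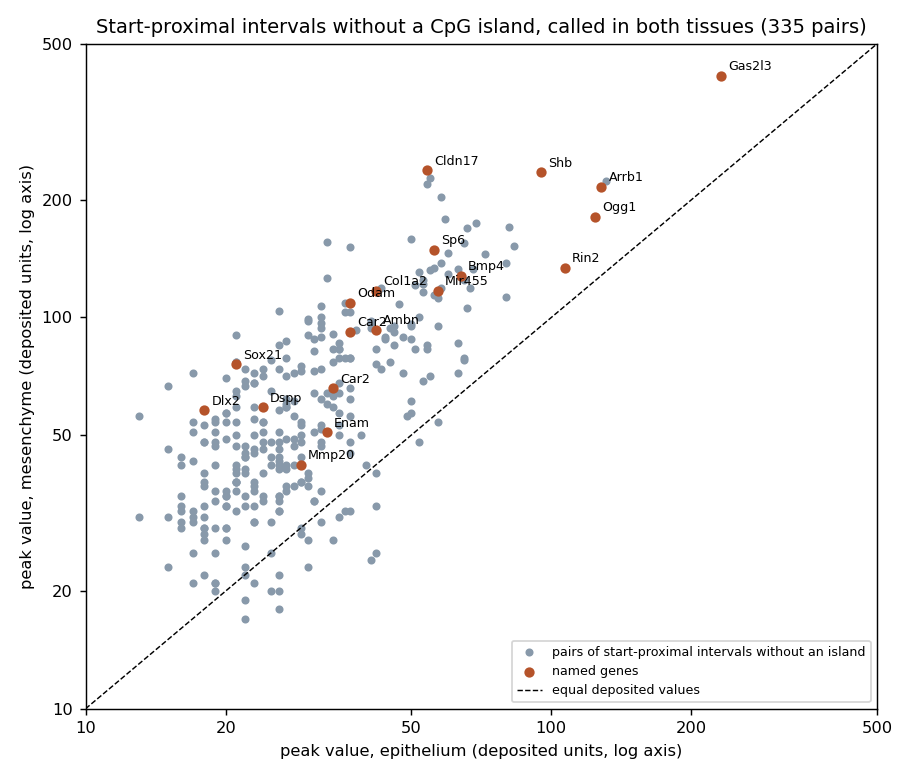
Peak value in epithelium (x axis) and mesenchyme (y axis, both in deposited units on log axes) of the 335 pairs of start-proximal intervals without an island, with named genes in orange and the line of equal values dashed. Of the pairs 311 lie above the line and 21 below it, and Gas2l3 stands at the top in both tissues with 231 and 415.

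Most of the strongest of these intervals were called at the same place in both tissues. The interval 2344 bp upstream of Gas2l3, whose protein links actin and microtubules in dividing cells, reached 231 in epithelium and 415 in mesenchyme, ranks 3 and 2 among all annotated intervals. Arrb1, which encodes the receptor adaptor beta-arrestin, had 128 and 216 at 1116 bp upstream (chr7:106682513-106683321 in epithelium). Ogg1, which encodes a glycosylase that removes oxidised guanine from DNA, had 124 and 181 at 1709 bp upstream in epithelium. Arrb1 ranked 17 and 41 and Ogg1 19 and 83, so these were high in both tissues.

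Further intervals with high values in at least 1 tissue lay at genes with varied roles. Rin2, a regulator of Rab and Ras, had 107 in epithelium and 134 in mesenchyme, 1973 bp inside the gene. Shb, a phosphotyrosine adaptor, had 95 and 235 at 723 bp upstream. Fras1, a basement membrane protein of developing epithelia, had 80 and 113 inside the gene at 2274 bp. Socs6, an inhibitor of cytokine signalling, had 83 and 152, and Adgrd1, an adhesion receptor coupled to G proteins, had 72 and 145. Golt1a, a Golgi transport gene, had 80 and 138, and Tmem213 had 81 and 170. Ckap2l, a spindle protein gene, had 69 and 174, Myo16, an unconventional myosin, 59 and 179, and Intu, a planar polarity and cilia gene, 65 and 155. Each of these was an interval of both tissues, and each lay at most 5 kb from the named start and outside an island.

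In all, 341 protein-coding genes had such an interval within 5000 bp of their own start in epithelium and 942 in mesenchyme, of 21887 genes, which is 1.56% and 4.3%. The 21887 are all RefSeq protein-coding genes. How many of them the authors' annotation held was not tested, and a gene missing from it could not be counted. Of these 293 were the same genes, 85.92% of the epithelium genes and 31.1% of the mesenchyme genes. Of the 48 genes of epithelium alone, 27 had a mesenchyme interval of another class or farther from the start, 10 of them an island interval near their start, and 21 had none. Of the 649 genes of mesenchyme alone, 121 had another epithelium interval and 528 had none. The mesenchyme list is the longer, so these differences describe lists of unequal length. The 27 gene lists described next hold 970 genes, of which 36 (3.711%) had such an interval in epithelium and 89 (9.175%) in mesenchyme, and 7 and 5 lists had none.

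**Figure D4:**
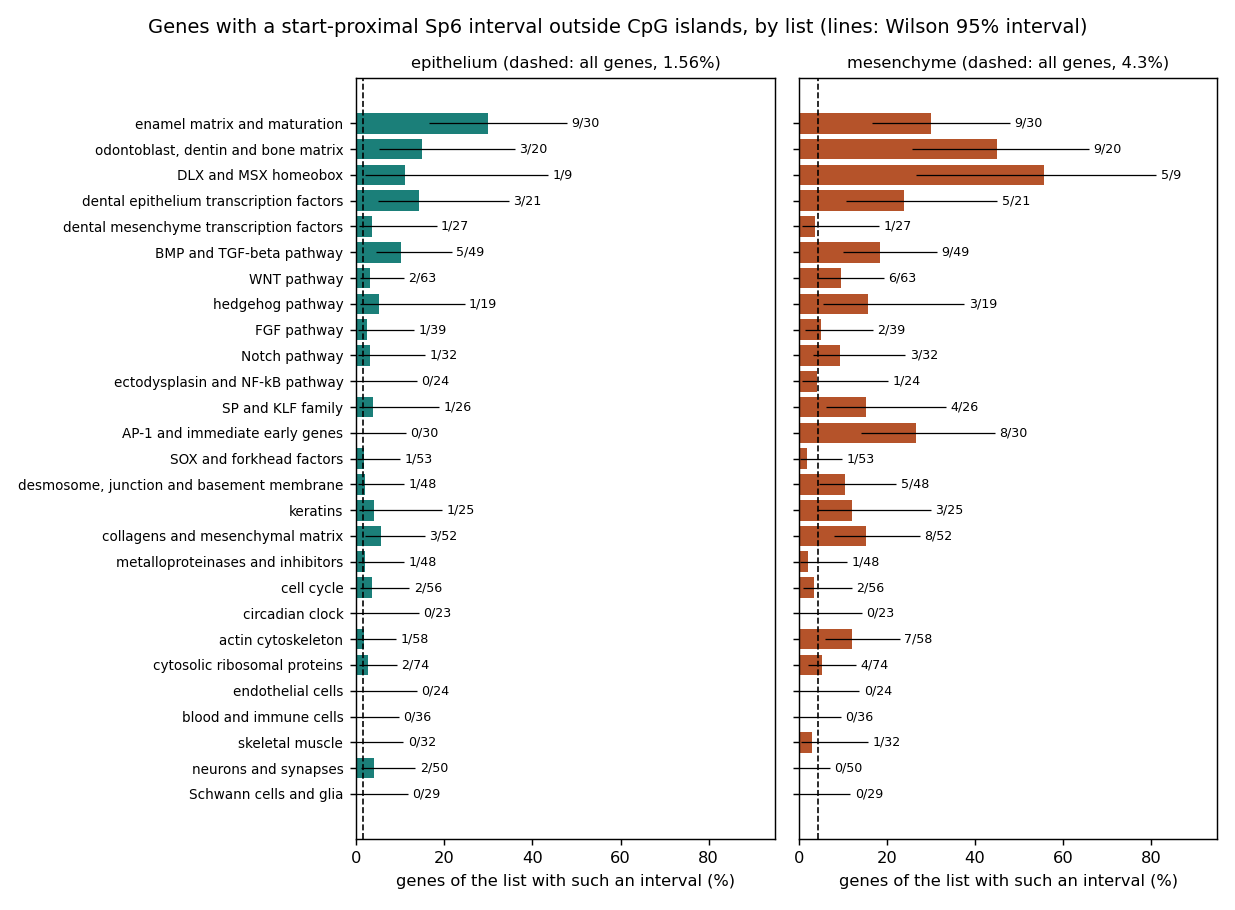
Share of each gene list (x axis, percent) with a start-proximal Sp6 interval outside CpG islands in epithelium (left) and mesenchyme (right), with the number of genes beside each bar, Wilson 95% intervals as lines and the share of all protein-coding genes as the dashed line (1.56% and 4.3%). The enamel list has 9 of 30 in both tissues, the dentin list 3 and 9 of 20, and the lists of endothelial, blood and Schwann cells 0.

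Enamel genes had these intervals in both tissues, and at the same genes. Of 30 enamel matrix and maturation genes, 9 had one in epithelium and 9 in mesenchyme (30%, 16.66 to 47.88%), beside 1.56% and 4.3% of all genes. They were Ambn, Enam and Amelx, the enamel matrix genes, Odam, an ameloblast-associated protein gene, Mmp20, the matrix protease, and Car2, Cftr, Slc26a1 and Slc4a2, whose products carry or buffer ions and bicarbonate. None of the 30 had an island interval near its start in either tissue. The 10 epithelium intervals behind the count had a median peak value of 34 (20 to 44), beside 26 over all 400, and the 12 of mesenchyme 59 (18 to 109), beside 33 over all 1130.

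The enamel matrix genes differed in where the interval lay. The peak centre was 172 bp upstream of Ambn in both tissues, 136 and 168 bp upstream of Enam, and 103 and 135 bp upstream of Mmp20 in epithelium and mesenchyme, all with the start inside the interval, at the promoters printed above. The peak values there were 42 and 93 for Ambn, 33 and 51 for Enam, and 29 and 42 for Mmp20. Odam, with 37 and 109, and Amelx, with 20 and 35, had theirs inside the gene, at 1248 and 1280 bp for Odam and at 1909 and 1621 bp for Amelx. Amelx had a further mesenchyme interval at 4629 bp with a value of 28, whose epithelium counterpart lay beyond 5000 bp. The mesenchyme interval of Amelx was 3504 bp long and also covered the start, so its start lay inside an interval in mesenchyme and not in epithelium.

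The transport genes had peak values from 26 to 44 in epithelium and from 18 to 92 in mesenchyme. Car2, which encodes a carbonic anhydrase, had 2 in each tissue, 34 and 37 in epithelium and 66 and 92 in mesenchyme, inside the gene at 2171 and 3995 bp in epithelium. Slc26a1, an anion exchanger, had 44 and 89 close to its start, 44 and 108 bp into the gene, and a further 54 in mesenchyme 1396 bp upstream. Cftr, the chloride channel gene, had 34 and 64 at 3793 bp inside the gene. Slc4a2, a chloride and bicarbonate exchanger, had 26 in epithelium and 18 in mesenchyme at 897 bp upstream (chr5:23930017-23930562 in epithelium), in an interval that also lay 892 bp upstream of Cdk5. It was the only pair of the enamel list with the higher deposited value in epithelium.

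Within 1000 bp of the start, 5 of the 30 enamel genes had such an interval in each tissue (16.7%), namely Ambn, Enam, Mmp20, Slc26a1 and Slc4a2. Only 42 of all protein-coding genes did in epithelium (0.192%) and 140 in mesenchyme (0.64%). The list was chosen with earlier results of these data known, and no test was made.

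Dentin and bone genes had the intervals mostly in mesenchyme. Of 20 genes, 3 had one in epithelium (15%, 5.237 to 36.04%), namely Dspp, Col1a1 and Col1a2, and 9 in mesenchyme (45%, 25.82 to 65.79%), which added Dmp1, Ibsp, Mepe, Phex, Enpp1 and Sp7. Of all genes, 1.56% had one in epithelium and 4.3% in mesenchyme. As the mesenchyme list is longer, the larger count there is no measure of a tissue difference. Dspp, whose product is cleaved into the main non-collagenous proteins of dentin, had 24 in epithelium and 59 in mesenchyme, 291 and 339 bp upstream. On chromosome 5 it lies beside further genes for acidic mineral-binding proteins. Dmp1 had a mesenchyme peak value of 26 at 3548 bp inside the gene (chr5:104634969-104635630). Ibsp, which encodes bone sialoprotein, had 40 at 221 bp upstream (chr5:104727699-104728306), and Mepe had 29 at 3685 bp inside the gene. Those 3 had no epithelium counterpart there.

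The type I collagen genes carried several intervals each. Col1a1 had 4 in mesenchyme, the most of any gene, with peak values of 33, 27, 20 and 31 at 1648 bp upstream and at 816, 3056 and 4528 bp inside the gene, and 1 in epithelium with 16 at 1680 bp upstream. Col1a2 had 1 in epithelium with 42, at 1871 bp inside the gene, where mesenchyme had 117, and mesenchyme added 21 and 24 at 111 and 527 bp. Sp7, the osteoblast and odontoblast factor osterix and itself an SP family member, had 28 in mesenchyme at 84 bp upstream. Phex, a peptidase gene of phosphate balance, had 16 at 270 bp upstream, and Enpp1, which makes pyrophosphate, had 32 at 2564 bp. The Sp6 intervals of Ibsp, Phex, Sp7 and Dspp were thus at the promoter, and within 1000 bp 6 of the 20 dentin genes had one in mesenchyme (30%) beside 0.64% of all genes, and 1 in epithelium.

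The list of 21 transcription factors for dental epithelium had 3 in that tissue (14.29%, 4.981 to 34.64%) and 5 in mesenchyme (23.81%, 10.63 to 45.09%), beside 1.56% and 4.3% of all genes. Sp6, Sox21 and Satb1 had an interval in both tissues, and Trp63 and Klf4 added 2 in mesenchyme. Sp6 itself had 56 in epithelium and 149 in mesenchyme at 2147 and 2115 bp upstream, and in mesenchyme a further 24 inside the gene at 3005 bp. Sox21, which helps keep ameloblast identity, had 21 and 76 at 2444 bp upstream, and Satb1, a chromatin organiser, had 26 and 46 at 4182 and 4246 bp inside the gene. Trp63, the p63 gene of epithelial progenitors, had 24 in mesenchyme alone at 28 bp upstream of a listed start (chr16:25801551-25802394), and Klf4 had 21 at 3274 bp. The mesenchyme library thus held intervals at starts of epithelial genes, Trp63 among them. RNA was not measured, and carry-over of epithelial cells was not tested. Of the 26 SP and KLF family genes, Sp6 alone had such an interval in epithelium (3.846%, 0.6822 to 18.89%). In mesenchyme 4 did (15.38%, 6.15 to 33.53%), Sp6, Sp7 and Klf4 among them, beside 1.56% and 4.3% of all genes. Island intervals near the start were listed for 0 of the 26 in epithelium and 5 in mesenchyme.

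Among the 9 genes of the DLX and MSX families, homeobox regulators of jaw and tooth patterning, Dlx2 had an interval in both tissues. The peak values of Dlx2 were 18 in epithelium and 58 in mesenchyme. So 1 of 9 had one in epithelium (11.11%) and 5 of 9 in mesenchyme (55.56%), beside 1.56% and 4.3% of all genes. Dlx1 (27), Dlx5 (23), Msx1 (19) and Msx2 (35) had one in mesenchyme alone, at 1234, 4628, 4288 and 2805 bp from their starts. Island intervals near the start were listed for 2 of the 9 in epithelium and 5 of the 9 in mesenchyme. These were not all the same genes, as Msx1 had no island interval near its start in either tissue. Within 1000 bp of a start none of the 9 had an interval without an island. Of the 27 factors of dental mesenchyme, 1 had such an interval in each tissue (3.704%), near the 1.56% and 4.3% of all genes. This was Gli2, the hedgehog effector, with 37 and 66 inside the gene at 4980 and 4996 bp, just within the limit of 5000 bp.

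In the BMP and TGF-beta pathway the ligands, receptors and inhibitors were all represented. Of 49 genes, 5 had an interval in epithelium (10.2%, 4.438 to 21.76%) and 9 in mesenchyme (18.37%, 9.976 to 31.36%). Bmp4, the ligand that passes between the dental tissues, had 64 and 128 at 382 bp upstream (chr14:47010368-47011001 in epithelium). Tgfb1 had 15 and 46 at 1653 and 1685 bp upstream, and Gdf5, a ligand of joint formation, had 21 in mesenchyme at 4991 bp. Among receptors, Acvr2a had 27 and 42 at 2605 bp upstream, and Bmpr1a had 49 and 30 in mesenchyme alone.

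Inhibitors of the pathway made up much of the rest. Smad6, an inhibitory SMAD, had 18 and 38 in epithelium, and in mesenchyme 93 at 3816 bp inside the gene. Smad7, the other inhibitory SMAD, had 25, 15 and 16 in mesenchyme at 2827 bp upstream and at 3445 and 4661 bp inside the gene. Bambi, a decoy receptor, had 64 in epithelium at 1197 bp inside the gene, where the mesenchyme interval, with 141, was counted as holding a CpG island. Id2, a target of BMP signalling, had 17 and Ltbp3, which stores latent TGF-beta, had 26 in mesenchyme. Within 1000 bp of a start only Bmp4 of the 49 had one, in both tissues (2.04%). Of all genes, 0.192% did in epithelium and 0.64% in mesenchyme.

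In the WNT pathway 2 of 63 genes had such an interval in epithelium and 6 in mesenchyme (9.524%, beside 4.3% of all genes). Dkk1, a secreted inhibitor, had 23 and 55 at 2450 and 2482 bp, and Fzd8, a receptor, had 21 and 40 at 1878 bp upstream. Mesenchyme added Wnt10a, a ligand needed for tooth formation, with 36 at 1814 bp inside the gene, Wls, which lets WNT ligands leave the cell, with 37, Gsk3b with 28 and Tcf7l2 with 30. Of the 19 hedgehog genes, Gli2 had one in both tissues and the receptor gene Ptch1 (22) had one in mesenchyme. Shares in epithelium in these lists, 3.175% and 5.263%, rest on 2 genes and 1 gene, beside 1.56% of all genes.

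The FGF pathway had 1 and 2 of 39 genes in epithelium and mesenchyme (2.564% and 5.128%), the Notch pathway 1 and 3 of 32 (3.125% and 9.375%), beside 1.56% and 4.3% of all genes. In 2 of these genes the interval had a different place in each tissue. Etv4, a transcription factor induced by FGF, had 15 in epithelium at 384 bp upstream and 26 in mesenchyme at 4992 bp inside the gene. Hes7, a Notch effector, had 26 in epithelium at 1587 bp upstream and 50 in mesenchyme at 4221 bp, past the gene. Mesenchyme alone had Hes1, the main Notch effector, with 38 at 13 bp from the start (chr16:30064946-30065884), Notch2 with 25, Fgfr1 with 17 and Traf6, a signal transducer towards NF-kB, with 25. Of the 24 ectodysplasin and NF-kB genes, 0 had one in epithelium, which allows a share of up to 13.8% by the Wilson interval. In mesenchyme 1 of the 24 did (4.167%), near the 4.3% of all genes.

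Of 30 immediate early genes for AP-1 and related factors, 8 had one in mesenchyme (26.67%, 14.18 to 44.45%), beside 4.3% of all genes. In epithelium 0 did, which allows a share of up to 11.35%, a range that holds the 1.56% of all genes. Island intervals near the start were listed for 3 of the 30 in epithelium and 9 in mesenchyme. Nr4a2, a nuclear receptor gene, had 62 at 2926 bp upstream and Zfp36, which destabilises mRNA, had 47 at 1705 bp upstream. Fos had 24, Jun 23 and Junb 27, all past the end of these short genes, at 4637, 3166 and 4311 bp. Btg1 (17), Ier2 (18) and Mycn (21) completed the list. Peak values were low, with a median of 23.5 beside 33 over all 1130, in the range where few mesenchyme intervals had an epithelium counterpart. The Junb interval is also listed for Prdx2, whose stronger interval had 58 and 203.

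Structural genes of epithelium lay near the background in the epithelium library, with 1 of 48 junction and basement membrane genes (2.083%) and 1 of 25 keratins (4%) beside 1.56% of all genes, and had 5 (10.42%) and 3 (12%) in mesenchyme beside 4.3%. Among junction genes Cdh3, the P-cadherin gene, had 21 in epithelium and 41 in mesenchyme. Mesenchyme added Gja1, a connexin gene whose mutation impairs enamel, with 43, and Cldn1 (37), Col17a1 (28) and Pkp4 (28). Among keratins Krt8 had 18 in epithelium at 2955 bp upstream, over which mesenchyme had 2 intervals with 43 and 53. Krt14, the keratin of basal epithelial cells, had 36, 18 and 14 in mesenchyme alone, at 1048 bp inside the gene and 1448 and 296 bp upstream. Krt80 had 36.

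Among 52 collagens and matrix genes of mesenchyme, none had an island interval near its start. Intervals without an island lay at 3 in epithelium (5.769%) and 8 in mesenchyme (15.38%), beside 1.56% and 4.3% of all genes. Besides the type I collagens these were Col11a2, with 16 and 42 at 446 bp upstream, and in mesenchyme Col2a1 (18), Fn1, the fibronectin gene (35), Fbn2, a fibrillin (34), Loxl2, a collagen cross-linking enzyme (18), and Lum, the lumican gene (16). In the actin cytoskeleton list Myl12b, a myosin light chain, had 23 and 36, and mesenchyme added Myh9, a non-muscle myosin heavy chain, with 31, Cnn2, a calponin, with 28 and Tln2, a talin, with 28. Of 48 metalloproteinases and their inhibitors, Mmp20 alone had one, in both tissues (2.083%, beside 1.56% and 4.3% of all genes).

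The cell cycle, ribosomal and clock lists lay within counting error of the background, 1.56% of all genes in epithelium and 4.3% in mesenchyme. Of 56 cell cycle genes 2 had an interval in both tissues (3.571%, 0.9849 to 12.12%), Plk4 with 32 and 30 and Wee1 with 37 and 56. Of 74 cytosolic ribosomal protein genes 2 had one in epithelium (2.703%) and 4 in mesenchyme (5.405%), led by Rps16 with 22 and 69. Of 23 clock genes 0 did in either tissue. Markers of other cells that a dissected molar could hold were also counted. Endothelial (24), blood and immune (36) and Schwann cell (29) genes had 0 in both tissues. Skeletal muscle had 0 of 32 in epithelium and 1 in mesenchyme (3.125%), Myh1 with 29. Neurons had 2 of 50 in epithelium (4%), Nlgn2 with 20 and Tubb3 with 14, and 0 in mesenchyme. Among 53 SOX and forkhead genes Sox21 alone had one (1.887% in each tissue).

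Epithelium had 55 such intervals that overlapped no mesenchyme interval, and among genes with a symbol the stronger ones had varied roles. Dtwd1, a tRNA modification gene, had the highest value among genes with a symbol, 100, in an interval of 282 bp at 4263 bp upstream (chr2:125973541-125973822). Izumo1, a sperm gene for fusion with the egg, had 71 at 1891 bp inside the gene. The next were Btbd9 with 33 at 82 bp upstream, Plekhg3 with 30, Snrpg, a spliceosome gene, with 29, and Ccdc177 with 27. Hes7 and Tbc1d12 followed with 26 each. The step from 71 to 33 holds only among genes with a symbol, as unnamed transcripts were passed over. Of the 36 epithelium intervals in the highest 10% of peak values 33 were shared, so a further unshared one, at an unnamed transcript, lay there.

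Mesenchyme had 794 with no epithelium interval. The highest at genes with a symbol were Tbc1d15, a Rab GTPase-activating protein, with 96 at 3671 bp upstream, Map3k1, a kinase of stress signalling, with 93 at 1449 bp upstream and 28 at 2935 bp inside the gene, and Stoml3, a stomatin of touch sensing, with 89 at 565 bp. Olfr1278, an olfactory receptor gene, had 86, Tiam2, an activator of Rac, 85, Lor, the loricrin of the cornified envelope, 83, Cars, a cysteinyl-tRNA synthetase, 82, and Arid3a, a DNA-binding protein, 81. All 8 were below the highest shared values, and ranked from 449 to 667 among the annotated intervals of mesenchyme.

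Most genes had a single interval of this kind. In epithelium 330 genes had 1 and 11 had 2, and in mesenchyme 887 had 1, 49 had 2, 5 had 3 and 1 had 4. In epithelium these included Car2, Fam3c, with 23 and 58, Vgll4, a TEAD cofactor, with 43 and 32, Tdrd7, with 50 and 23, and Ppp1r14c, with 30 and 55. At Vgll4 the mesenchyme had 1 wider interval, with 74, over both. Genes with 3 in mesenchyme included Col1a2, Smad7, Krt14, Baz2b (19, 26 and 25) and Ino80d (17, 41 and 19).

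Island status could differ between tissues at the same place. Of the 400 epithelium intervals, 335 overlapped a mesenchyme interval that also lay near a start without an island, and 11 overlapped one with an island. In the 10 pairs in which the island interval was the partner, among them Vldlr (84 and 176), Poc1b (71 and 171), Bambi (64 and 141) and Gmcl1 (56 and 119), the median length was 620 bp in epithelium and 1444 bp in mesenchyme, and the median gap between peak centres was 32 bp. The mesenchyme intervals of these pairs were counted as holding an island and the epithelium intervals were not. How the authors counted islands per interval is not stated, and the part of interval width was not tested. So a gene such as Vldlr, a receptor for reelin and lipoproteins, counts here in epithelium and not in mesenchyme, with a peak at nearly the same position.

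The promoters of genes whose start lay inside such an interval were poorer in CpG than promoters in general. Over 39 genes in mesenchyme, the RefSeq promoter had a median observed-to-expected CpG ratio of 0.406 (interquartile range 0.263 to 0.622), beside 0.559 over all 14731 promoters and 0.844 over 233 genes with their start inside an island interval. The rule requires that the interval holds no island, so this follows in part from it. In epithelium 8 genes could be measured, with a median of 0.288. The median GC content was 49.7% in mesenchyme and 49.3% in epithelium, beside 55.7% over all promoters.

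GC boxes, the usual letters of SP factor sites, were found in 15 of the 39 promoters (38.5%, 24.9 to 54.1%) and 1 of the 8 (12.5%), beside 45.3% of all promoters and 68.7% of those inside island intervals. With starts within 5000 bp the shares were 61.2% and 62%, above that of all promoters. CACCC boxes were found in 14 of the 39 (35.9%, 22.7 to 51.6%), beside 32% of all promoters. The homeodomain core TAATT was found in 19 of 39 (48.7%, 33.9 to 63.8%) and 5 of 8 (62.5%), beside 24.6% of all and 21% of those inside island intervals. Letters rich in A and T are more common where GC content is lower, so this share moves with the GC content above, and its part was not tested. Promoters of genes whose interval lay 1 to 5 kb away, a set added after seeing the data, looked different. Their median CpG ratio was 0.786 in epithelium (195 genes) and 0.754 in mesenchyme (515 genes), with a GC box in 64.1% and 63.5% and a homeodomain core in 12.3% and 15.1%. The 300-base windows are not the intervals, and where a promoter lacked a motif the interval may hold it elsewhere.

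**Figure D5:**
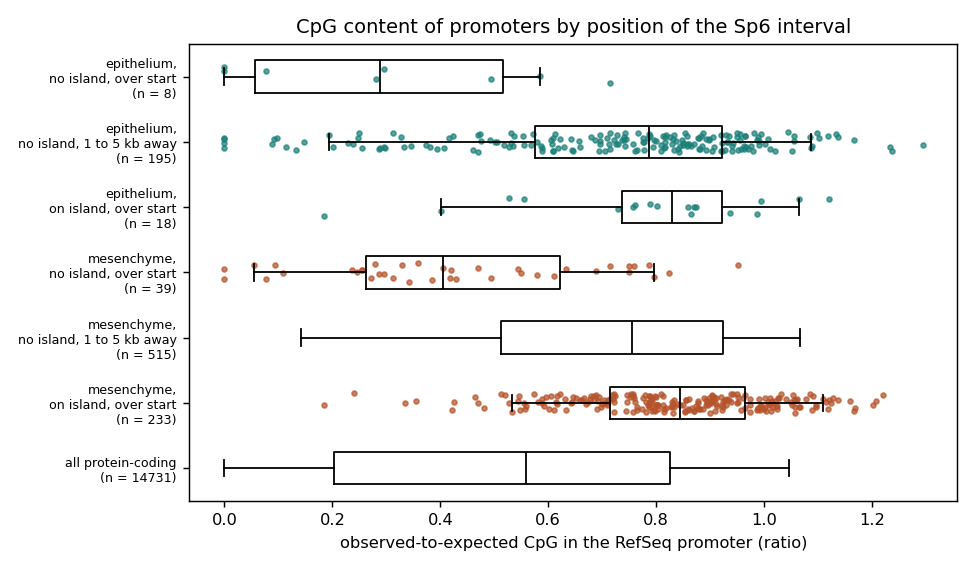
Observed-to-expected CpG ratio (x axis) of RefSeq promoters by where the Sp6 interval lay, with boxes for the quartiles and median, whiskers from the 5th to the 95th percentile, and a point for each gene except in the 2 largest sets. Promoters with the start inside an interval without an island have medians of 0.288 and 0.406, those with the interval 1 to 5 kb away 0.786 and 0.754, and all protein-coding promoters 0.559.

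Several genes of prior interest had no start-proximal interval outside an island. Amtn, an enamel gene beside Ambn, had its interval 19.28 kb from the start in epithelium, with 36, and 19.25 kb in mesenchyme, with 78. Klk4, the late enamel protease, had 25 at 10.66 kb in epithelium. Runx2, Dlx3 and Lef1 had intervals only beyond 5 kb, at 146.6, 18.28 and 103.8 kb in epithelium. Shh, the epithelial signal, and Cdkn1a had an island interval near the start in mesenchyme, with highest peak values of 18 and 37 over their intervals. Msx2 had none outside an island in epithelium, where it had an island interval. Fst, the follistatin gene, and Rock1 had no listed interval in either tissue.

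MicroRNA genes were looked at after the values were seen. Starts of 5 microRNA genes lay within 5000 bp of such an interval in epithelium and of 17 in mesenchyme, of 1193 listed in RefSeq (0.419% and 1.42%). How many of these the authors' annotation held was not tested, so these shares are not set beside those of protein-coding genes. Their mature sequences are shown because several share a seed, bases 2 to 8, given in capitals, as annotated in RefSeq (GRCm38.p6).
mmu-miR-455-5p: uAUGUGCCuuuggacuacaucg
mmu-miR-455-3p: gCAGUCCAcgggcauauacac
mmu-miR-205-5p: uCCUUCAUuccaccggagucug
mmu-miR-125b-5p: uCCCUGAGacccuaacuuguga
mmu-miR-153-3p: uUGCAUAGucacaaaagugauc
mmu-miR-181a-5p: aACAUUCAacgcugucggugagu
mmu-miR-181b-5p: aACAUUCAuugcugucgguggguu
mmu-miR-221-3p: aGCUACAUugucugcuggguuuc
mmu-miR-222-3p: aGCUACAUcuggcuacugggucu

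Mir455, which lies in the collagen gene Col27a1, had the strongest interval, 57 in epithelium (chr4:62918585-62919187) and 117 in mesenchyme (chr4:62918262-62919289), at 996 and 1060 bp past its start. Mir125b-1 had 26 and 20, one of the 21 pairs with the higher value in epithelium, and Mir701 had 22 and 26. Those 3 were the microRNA genes with a shared interval. Mir326 had 17 and 21 in intervals at different places, at 4298 bp upstream in epithelium and 1366 bp downstream in mesenchyme.

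The rest were in 1 tissue. Mir205, a microRNA of stratified epithelia, had 22 and 20 in mesenchyme at 2597 and 837 bp upstream. Mir153 had 46 at 233 bp upstream. The neighbours Mir181a-1 and Mir181b-1, whose 5p forms share the seed ACAUUCA, both lay near the same mesenchyme intervals, with values of 33 and 23. Their relative Mir181b-2 on chromosome 2 had 18 in epithelium alone. Mir221 and Mir222, which share the seed GCUACAU in their 3p forms, lay near a single mesenchyme interval with 22 on the X chromosome. A microRNA's listed start is that of its hairpin and not of the primary transcript, so these distances do not place an interval at a promoter.

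At the limit of 5000 bp, the closest inside in epithelium were LOC100041292 at 4976 bp with a peak value of 32, Gli2 at 4980 bp with 37 and LOC100042418 at 4981 bp with 19. The closest outside were LOC100040322 at 5004 bp with 32, Tjp1, a tight junction gene, at 5027 bp with 47, and Slc27a6 at 5034 bp with 32. In mesenchyme Gdf5, Etv4 and Gli2 lay just inside at 4991, 4992 and 4996 bp with 21, 26 and 66, and Adam1b, Tjp1 and Vangl2 just outside at 5005, 5011 and 5015 bp with 21, 48 and 43. The values on both sides of the limit were alike in range.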

How the data were processed

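Sp6 and input ChIP-seq libraries of dental epithelium and mesenchyme (4 samples, 1 per group) were grouped by their titles. Per the submitters' processing notes, coordinates are on mm9 and MACS 1.3.7.1 was used. Not given in the sources used here are the aligner, thresholds, scaling and read totals, so depth is unknown. The authors deposited an interval list per library and, for each Sp6 library, a gene table with the signal of each interval (peak value, the density in its highest bin, and average value), per the file headers. Peak values are the authors' own and were used within a library; ratios between libraries are deposited values only. Each table lists genes from 10 kb upstream to past the gene end, so only annotated intervals could be classed.

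Intervals were classed by CpG island count and smallest absolute distance to a listed start. An overlap of 1 bp or more made an interval shared. A gene was counted when its own listed start lay within 5000 bp. Names matched RefSeq symbols or synonyms (GRCm38.p6) on the same chromosome for 1998 of 2239 names in epithelium (89.2%) and 4814 of 5391 in mesenchyme (89.3%). Strands came from genes with several peak centres in the tables, otherwise from RefSeq, a choice made after seeing the data; of 1785 genes with both, 1780 agreed. Promoters were read for genes with a single RefSeq promoter. Deposited coordinates are mm9, counted from 1, and promoters and microRNAs are GRCm38.p6. Shares carry Wilson 95% intervals for counting error only. No test was made. The classing was tested on simulated intervals.

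The intervals, gene lists and named genes were chosen with earlier results of these data known. Named genes are those of the 12 highest intervals in each tissue and of the 12 highest shared ones. Those of the 8 highest of each tissue alone were added. Unnamed transcripts (Rik, Gm, LOC and accession-like names) were passed over in these choices and among genes with several intervals. Further genes are up to 6 per gene list and tissue, up to 8 with several intervals, those at the 5000 bp limit, and 24 genes of prior interest. Other genes named were chosen after their values were seen. A few genes that the rule names are not reported here. The alternatives were windows of 1000, 2500 and 10000 bp, intervals with islands, the top 50% by peak value, stricter overlap, average values, and intervals on input left out. Python 3.11.15, pandas 2.3.3, numpy 2.4.6, statsmodels 0.14.6 and matplotlib 3.10.9 were used.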

Additional observations from a re-analysis of the deposited data

How the results depend on the processing

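Counts followed the window. With 1000, 2500 and 10000 bp there were 56, 215 and 721 intervals in epithelium and 191, 587 and 2016 in mesenchyme. The genes with one numbered 42, 179 and 632 in epithelium and 140, 475 and 1667 in mesenchyme. Genes of any list numbered 10 and 62 in epithelium at 1000 and 10000 bp, and 18, 47 and 139 in mesenchyme at 1000, 2500 and 10000 bp. In the top 50% of intervals by peak value there were 186 and 536 intervals, 161 and 466 genes, 15 and 44 genes of any list, and 95.7% and 50.37% shared in epithelium and mesenchyme. Mesenchyme had 1699 intervals when islands were kept. Shared percentages were 82.14% and 23.04% within 1000 bp, and 81.75% in epithelium for peak centres within 100 bp. In mesenchyme the median peak value was 79.41% of that of all annotated intervals within 1000 bp, where it was 97.06% within 5000 bp. GC boxes were in 62% and 61.2% of promoters with a start within 5000 bp. The cause of these moves was not tested, beyond the window or list size that sets a count. A further 30 summary values stayed within counting error or 1.5 times the count. Some crossed the value they were set beside. With starts within 1000 bp GC boxes were in 46.2% and 47.7% of promoters, so both wider windows lay above the 45.3% of all promoters. The epithelium median peak value was 103.7% of that of all annotated intervals within 1000 bp (96.3% within 5000 bp), and 51.61% of epithelium intervals lay upstream in the top 50%. No paired analysis was possible because each group has 1 library. Depth is unknown, so an interval absent from a list may have been below detection.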

Other observations

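Gene families were counted after seeing the data. Among 35 claudin genes, which form tight junctions, 3 had a start-proximal interval outside an island in epithelium (Cldn12, Cldn16 and Cldn17; 8.57%) and 5 in mesenchyme (with Cldn1 and Cldn20; 14.3%), beside 1.56% and 4.3% of all protein-coding genes. Solute carriers lay near that background, with 7 of 384 (1.82%) and 18 (4.69%). Olfactory receptors had 0 and 7 of 1428, vomeronasal receptors 1 and 2 of 645, and zinc-finger genes of the Zfp series 7 and 14 of 416.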
